A study of Rattus norvegicus with 46 samples.

Results

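The 10 genes described here are grouped as genes of immature or denervated skeletal muscle. They were followed through the rat rotator cuff after the supraspinatus tendon had been cut, with the overlying subacromial bursa kept or taken out. They are Myog, Myod1, Chrna1, Chrnd, Chrng, Myh3, Myh8, Myl4, Actc1 and Ankrd1. The group name does not describe every member's values, since Myod1 and Myh3 averaged highest in uninjured controls among the tendons. The members were chosen by symbol, from genes already known to move in these libraries, so their values below are a description. Of the 10, 9 have a row among the 23747 symbols of the deposited gene tables and were each traced to 1 transcript of the count table. Chrng, the gamma subunit of the fetal receptor, is not analysed here.

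The series holds 46 poly-A RNA libraries of rat (Rattus norvegicus) tissue in 8 groups. The supraspinatus tendon libraries comprise 5 from rats that had no operation, 6 taken 3 days after tenotomy with bursectomy (bursa removed), 6 taken 3 days after tenotomy alone (bursa intact), and 6 of each kind taken after 14 days. The bursa libraries comprise 5 from rats without operation, 6 taken on day 3 and 6 taken on day 14 from operated shoulders. The series text describes tendons of both shoulders of a rat and a within-rat control, but the labels give no strain, age or sex and do not say which rat a library came from. Where nothing ties libraries to separate animals, p-values measure only the spread between these libraries.

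Skeletal muscle fibres are built by the fusion of myoblasts under the control of MyoD (Myod1) and then myogenin (Myog), basic helix-loop-helix factors that bind the E-box CANNTG. Young fibres make embryonic and neonatal myosins and receptor subunits along their whole length, and innervation later restricts the acetylcholine receptor to the synapse. When a mature fibre is damaged, regenerates or loses its nerve, Myog and the receptor genes Chrna1 and Chrnd are known to be switched on again. A tendon such as the supraspinatus is continuous with its muscle belly, so dissected tendon can hold muscle RNA.

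Myog, Chrna1 and Chrnd were each called above control tendon on day 3 and lower on day 14 than on day 3, and the 250 bases before the RefSeq start of each are shown to place the E-boxes near these starts. In GRCr8 the windows are chr13:48297226-48297475 on the plus strand for Myog, chr3:78877354-78877603 on the minus strand for Chrna1 and chr9:95310066-95310315 on the plus strand for Chrnd. Each is written 5′ to 3′ on the strand of its gene, and the capitals mark every CANNTG.
Myog: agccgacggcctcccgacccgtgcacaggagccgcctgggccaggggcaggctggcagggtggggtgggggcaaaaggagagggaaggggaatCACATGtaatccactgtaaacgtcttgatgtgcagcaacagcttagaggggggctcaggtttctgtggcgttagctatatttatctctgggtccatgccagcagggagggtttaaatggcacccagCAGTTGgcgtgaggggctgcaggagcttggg
Chrna1: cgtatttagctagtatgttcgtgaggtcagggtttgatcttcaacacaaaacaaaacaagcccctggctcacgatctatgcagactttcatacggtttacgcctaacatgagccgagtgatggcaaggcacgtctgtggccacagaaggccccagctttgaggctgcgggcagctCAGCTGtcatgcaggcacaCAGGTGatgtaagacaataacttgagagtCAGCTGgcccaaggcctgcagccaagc
Chrnd: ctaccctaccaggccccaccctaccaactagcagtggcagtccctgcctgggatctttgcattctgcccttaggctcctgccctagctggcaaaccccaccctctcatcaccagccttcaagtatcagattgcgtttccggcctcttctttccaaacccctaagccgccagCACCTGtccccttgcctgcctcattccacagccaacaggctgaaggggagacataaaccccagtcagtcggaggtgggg

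The Chrna1 window held CAGCTG starting at bases -75 and -27, counted from the RefSeq start, and CAGGTG at -56. The Chrnd window held 1 match of CAGGTG, read as CACCTG on its plus strand, at -79. The Myog window held 2 CANNTG matches and neither CAGCTG nor CAGGTG. Both strands were searched, and CANNTG includes the other 2 motifs. Over all 33469 rat windows of this length, 65.5% held CANNTG, 12% held CAGCTG and 15.9% held CAGGTG. Promoter windows were found for 8 of the 10 genes, with none for Myod1 or Ankrd1. Among the other 5 windows, CAGCTG was present in those of Chrng and Myl4 and absent from those of Actc1, Myh3 and Myh8. These matches are letters in a window and carry no measurement of binding.

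Levels are given in CPM, counts scaled to a common library size, after TMM scaling over all 46 libraries, which hold 12425823 to 69947597 estimated counts each. CPM is not corrected for length, so a gene's level is compared between libraries and never with the level of another gene. Fold changes are log2 values ± SE from edgeR's quasi-likelihood model, fitted over all 16395 tendon features or all 16336 bursa features, and a gene is called where the Benjamini-Hochberg adjusted p is under 0.05. Myh3 and Myh8 belong to a family of similar myosin genes, and Actc1 resembles the other actins, so the split of reads between such copies is uncertain. In bulk tissue, fewer cells of a type and less RNA per cell cannot be told apart. Where groups are said not to overlap, the share of all features that separate as fully was not counted.

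The muscle content of the libraries differed strongly between groups, and this stands beside every value below. The 18 adult muscle fibre genes that could be traced, among them Ckm, Acta1 and Tnnc1, summed to 50300 to 80400 CPM in control tendons. On day 3 they summed to 4180 to 33700 CPM in bursa removed tendons and 4090 to 10600 CPM in bursa intact tendons. On day 14 the sums were 6120 to 26100 CPM in bursa removed tendons and 2940 to 11600 CPM in bursa intact tendons. All 18 fell in each of the 4 comparisons with control tendon, where 32.0% to 32.9% of all features were called lower. None of the 18 was under 0.5 CPM on average in any group. The tendon cell list, which includes Scx, Mkx and Tnmd, summed to 3910 to 9300 CPM in control tendons and to 60.1 to 2550 CPM in control bursae.

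**Figure D1:**
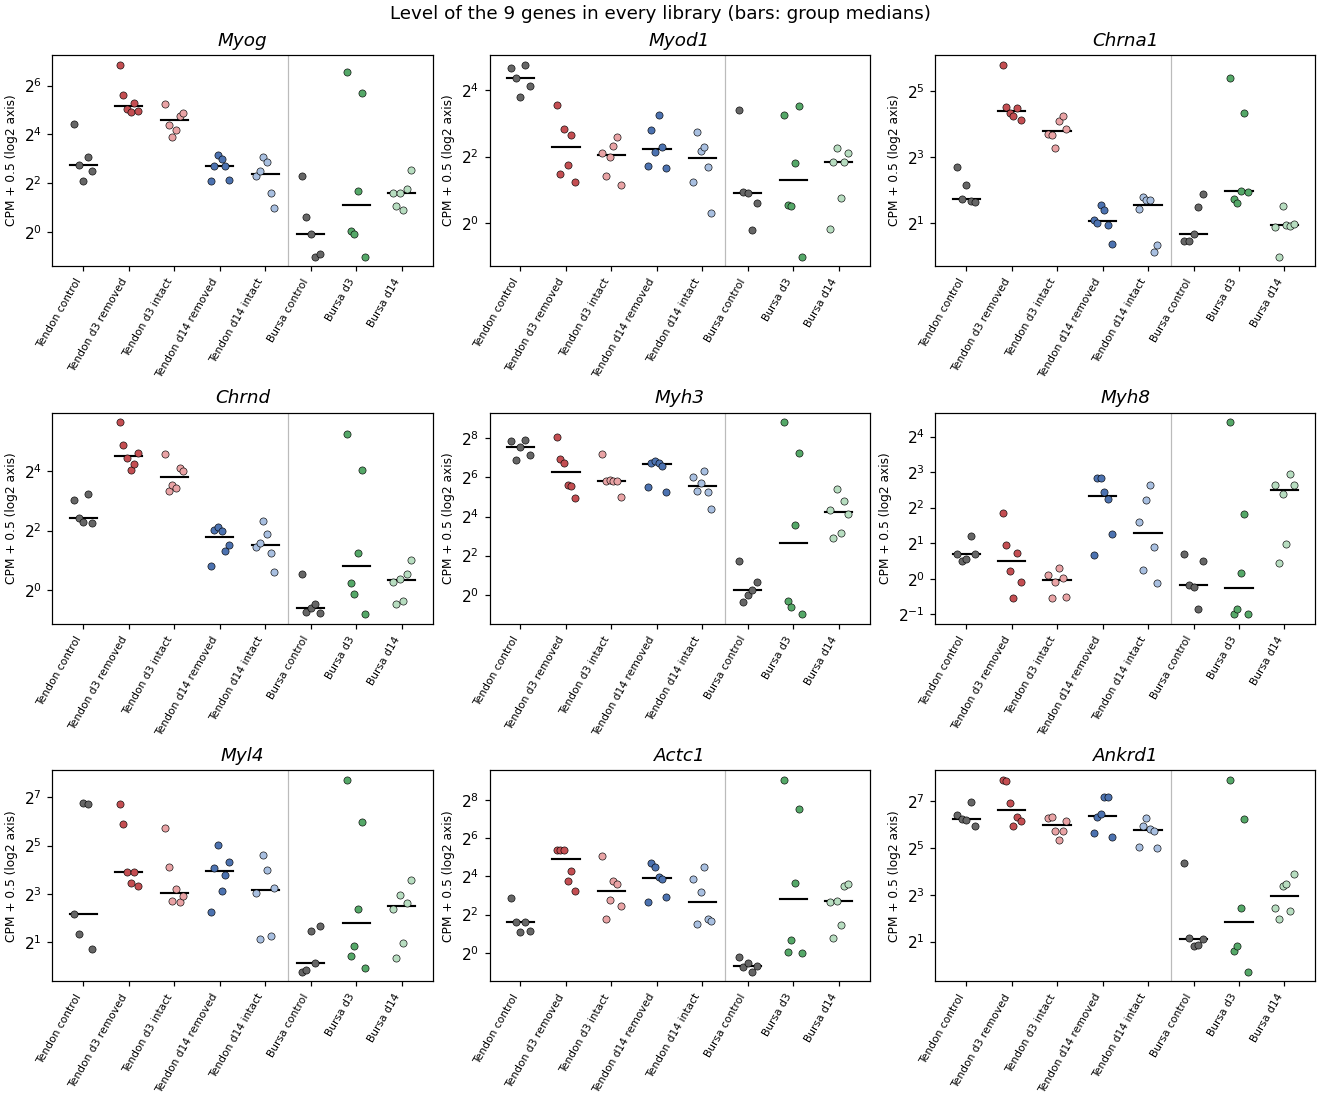
Level of each of the 9 genes in all 46 libraries, as CPM + 0.5 on a log2 axis, by group, with 1 point per library and a bar at the group median. Among tendons, Chrna1 and Chrnd are highest in the 12 day 3 libraries, Myog is highest there apart from an overlap with control tendon 1, Myod1 is highest in the control tendons, and 2 of the day 3 bursae stand above the rest for most genes.

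On day 3 both receptor genes stood above every control tendon in every tenotomised tendon, and myogenin did so in every bursa removed tendon. Chrna1, which encodes the ligand-binding alpha subunit of the muscle acetylcholine receptor, had a lowest, median and highest level of 16.8, 20.6 and 55.1 CPM in bursa removed tendons and of 9.2, 13.1 and 18.3 CPM in bursa intact tendons. The 5 control tendons had 5.99, 2.81, 3.87, 2.67 and 2.58 CPM, so neither operated group overlapped them. The fitted changes were 2.80 ± 0.37 with the bursa removed and 1.89 ± 0.36 with it intact.

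Chrnd, the delta subunit of the same receptor, had 16.1, 22.8 and 50.4 CPM (lowest, median and highest) in day 3 bursa removed tendons and 9.51, 13.5 and 23.5 CPM in bursa intact tendons. Control tendons had 7.64, 4.82, 4.39, 9.04 and 4.27 CPM, all below the lowest operated tendon. The changes were 2.11 ± 0.35 and 1.23 ± 0.34 with the bursa removed and intact. Myog had 30.1, 35.6 and 116 CPM in bursa removed tendons and 14.2, 23.5 and 37.3 CPM in bursa intact tendons. Control tendons had 20.8, 6.22, 3.8, 8.01 and 5.17 CPM, so control tendon 1 lay within the bursa intact range and below the bursa removed range. Its changes were 2.45 ± 0.44 and 1.41 ± 0.43.

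Actc1, the cardiac alpha actin that fetal skeletal muscle also uses, was the fourth gene above control on day 3. Bursa removed tendons had 8.88, 29.9 and 41.4 CPM and bursa intact tendons 2.88, 8.97 and 33.5 CPM, against 6.66, 2.56, 1.64, 2.5 and 1.68 CPM in control tendons. The bursa removed tendons did not overlap control, and the bursa intact tendons did. The changes were 3.13 ± 0.70 and 1.94 ± 0.68.

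Myod1, the determination factor that satellite cells and myoblasts carry, went the other way from myogenin. It had 1.88, 4.34 and 11.3 CPM in day 3 bursa removed tendons and 1.73, 3.64 and 5.49 CPM in bursa intact tendons, against 24.7, 20, 13.3, 26.6 and 16.8 CPM in control tendons. Every control tendon lay above every operated tendon, and the changes were -2.03 ± 0.44 and -2.55 ± 0.45. With the adult muscle level as a covariate the Myod1 changes turned to 0.21 and 0.19. Myh3, embryonic myosin heavy chain, averaged 104 ± 87.3 CPM in bursa removed tendons and 67.3 ± 41.1 CPM in bursa intact tendons (SD, n = 6 each), against 184 ± 53.4 CPM in control tendons (SD, n = 5). Its changes were -0.86 ± 0.45 and -1.49 ± 0.46, with both operated groups overlapping control tendons, and the bursa intact change turned to 0.98 with the adult muscle level as a covariate.

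Neither Myh8, Myl4 nor Ankrd1 was called against control on day 3. Myh8, the neonatal or perinatal myosin heavy chain, ranged from 0.187 to 3.12 CPM in bursa removed tendons and 0.186 to 0.729 CPM in bursa intact tendons, against 0.915 to 1.81 CPM in control tendons. Ankrd1, a stress-responsive protein that binds titin in the sarcomere, ranged from 61.9 to 239 CPM in bursa removed tendons and from 39.9 to 81.2 CPM in bursa intact tendons, against 60.6 to 125 CPM in control tendons. Myl4, the embryonic and atrial light chain, ranged from 9.38 to 105 CPM and from 5.81 to 53 CPM with the bursa removed and intact. Control tendons were split for Myl4, with 109 and 107 CPM in tendons 3 and 4 and 3.97, 2.01 and 1.12 CPM in the others, and every day 3 tendon lay between these 2 levels. The fitted changes with the bursa removed and intact were -0.05 ± 0.62 and -1.44 ± 0.65 for Myh8, 0.64 ± 0.36 and -0.46 ± 0.36 for Ankrd1 and -0.37 ± 0.91 and -1.51 ± 0.92 for Myl4.

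Of the 9 genes, 4 were called higher and 1 lower in day 3 bursa removed tendons, where 30.7% of all features were called higher and 32.1% lower. In day 3 bursa intact tendons 4 were called higher and 2 lower, against 32.5% and 32.9% of all features. The genes called higher in each were Actc1, Myog, Chrna1 and Chrnd, and Myod1 was called lower in both, joined by Myh3 in the bursa intact tendons. Without bursa intact tendon 1 the bursa intact counts were 3 higher and 3 lower. The 2 comparisons share the 5 control tendons.

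**Figure D2:**
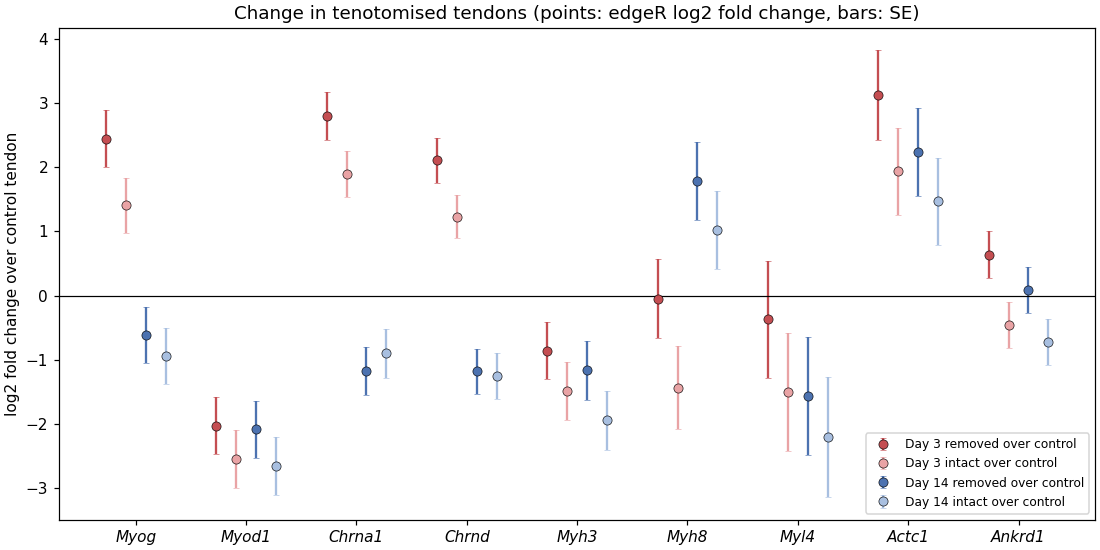
Log2 fold change of the 9 genes over control tendon in the 4 tenotomised tendon groups, from edgeR, with bars of 1 SE. Myog, Chrna1 and Chrnd lie above 0 on day 3 and below it on day 14, Myod1 and Myh3 lie below 0 throughout, and Actc1 lies above 0 throughout.

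By day 14 the receptor genes were below the level of control tendon. Chrna1 ranged from 0.765 to 2.37 CPM in bursa removed tendons and from 0.576 to 2.9 CPM in bursa intact tendons, against 2.58 to 5.99 CPM in control tendons. Only the bursa intact tendons overlapped control, and the changes were -1.18 ± 0.38 and -0.90 ± 0.38 with the bursa removed and intact. Chrnd ranged from 1.23 to 3.82 CPM and from 1.02 to 4.57 CPM in those groups, against 4.27 to 9.04 CPM in control tendons, with changes of -1.18 ± 0.35 and -1.26 ± 0.36. With the adult muscle level as a covariate the bursa intact changes turned to 0.45 for Chrna1 and 0.21 for Chrnd, and the bursa removed change of Chrnd to 0.08. Myog averaged 5.92 ± 1.82 CPM and 4.72 ± 2.47 CPM in them (SD, n = 6 each), against 8.80 ± 6.89 CPM in control tendons (SD, n = 5), and was not called.

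Set against day 3 instead of control, Chrna1 changed by -3.98 ± 0.36 on day 14 with the bursa removed and by -2.79 ± 0.35 with it intact. Chrnd changed by -3.28 ± 0.34 and -2.49 ± 0.34, and Myog by -3.07 ± 0.42 and -2.35 ± 0.42. No day 14 tendon reached the lowest day 3 tendon for any of these 3 genes. Over all features 22.6% and 21.7% were called lower on day 14 than on day 3, with the bursa removed and intact.

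Myh8 ran later than the others. It had 1.1, 4.56 and 6.67 CPM in day 14 bursa removed tendons and 0.428, 1.95 and 5.71 CPM in bursa intact tendons, against control tendons of 1.12, 0.915, 0.968, 1.81 and 1.12 CPM. Both operated groups overlapped control at their lower end. From day 3 to day 14 its changes were 1.85 ± 0.57 with the bursa removed and 2.46 ± 0.61 with it intact. Actc1 ranged from 5.78 to 25.4 CPM in day 14 bursa removed tendons and from 2.36 to 21.7 CPM in bursa intact tendons, with changes over control of 2.24 ± 0.68 and 1.47 ± 0.68.

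Myod1 and Myh3 were low on day 14 as on day 3. Myod1 averaged 4.88 ± 2.46 CPM in bursa removed tendons and 3.32 ± 1.93 CPM in bursa intact tendons (SD, n = 6 each), with changes over control of -2.09 ± 0.44 and -2.66 ± 0.45. Myh3 averaged 84.4 ± 34.4 CPM and 49.2 ± 21.3 CPM in those groups, with changes of -1.17 ± 0.46 and -1.95 ± 0.46. With the adult muscle level as a covariate the Myh3 changes turned to 0.74 and 0.31. Ankrd1 changed over control by 0.08 ± 0.36 and -0.73 ± 0.36.

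In day 14 bursa removed tendons 2 of the 9 genes, Actc1 and Myh8, were called higher than control and 4 lower, against 33.2% and 32.0% of all features. In day 14 bursa intact tendons 0 were called higher and 5 lower, against 33.9% and 32.4%. The 5 were Myod1, Chrna1, Chrnd, Myh3 and Myl4, the last at -2.21 ± 0.94. Myl4 had 1.69 to 23.8 CPM in these tendons, against 109 and 107 CPM in control tendons 3 and 4 and 1.12 to 3.97 CPM in the other controls. The count of 0 called higher is from edgeR, while DESeq2 called 1 higher. At an unadjusted p under 0.05 edgeR had 7 of the 9 genes in either direction, against 11263 of all 16395 features. With the replicate number as a block edgeR called 1 higher, Actc1, and 3 lower in the bursa intact tendons. Between day 14 and day 3, Myh8 was called higher and Myog, Chrna1 and Chrnd lower in bursa removed tendons, where 22.4% of all features were called higher and 22.6% lower. The same genes were called in bursa intact tendons, against 21.3% and 21.7%.

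The direct comparison of bursa removed with bursa intact tendons asks whether taking out the bursa changed the response of the cut tendon. On day 3 all 9 genes had a higher fitted level with the bursa removed, by 1.19 ± 0.57 for Actc1, 1.10 ± 0.34 for Ankrd1, 1.04 ± 0.39 for Myog, 0.91 ± 0.31 for Chrna1 and 0.88 ± 0.30 for Chrnd. Between the bursa removed and the bursa intact tendon of the same replicate number, Myog, Chrna1, Chrnd, Myl4 and Actc1 were higher in 6 of 6, Ankrd1, Myod1 and Myh8 in 5 of 6, and Myh3 in 3 of 6. The mean difference over the 6 numbers, on the log2(CPM + 0.5) scale, was 0.89 ± 0.56 for Myog, 0.78 ± 0.74 for Chrna1, 0.82 ± 0.49 for Chrnd and 0.98 ± 0.58 for Myl4 (SD, n = 6).

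edgeR called 0 of the 9 genes in this comparison, against 0% of all features at an adjusted p under 0.05. At an unadjusted p under 0.05 it had 6 of the 9, against 7.71% of all features. With the replicate number as a block over the same 12 libraries edgeR again called 0. The authors' deposited table called 5 of the 7 members that have an adjusted p in it, all higher with the bursa removed, against 0.391% of its 7928 genes called in that direction. In the authors' deposited table the 5 were Myl4 at 1.06 ± 0.18, Myog at 0.94 ± 0.18, Ankrd1 at 0.95 ± 0.18, Chrnd at 0.86 ± 0.18 and Chrna1 at 0.81 ± 0.22. Its fold changes were matched most closely by DESeq2 with the replicate number as a block, which called 4 of the 9 here, Myl4, Myog, Ankrd1 and Chrnd. The members were picked with this contrast known, and nothing is read from these counts.

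Adult muscle RNA and replicate number 1 moved with the day 3 difference. The mean log2 level of the adult list was higher with the bursa removed in 4 of 6 numbers, by 0.52 ± 0.85 on average (SD, n = 6), and its 18 genes had a median fitted change of 0.74 with none called. Bursa removed tendon 1 had the highest adult muscle sum of its group, 33700 CPM, and the highest level of every member but Actc1. Its levels included 116 CPM for Myog, 55.1 CPM for Chrna1, 50.4 CPM for Chrnd, 265 CPM for Myh3 and 239 CPM for Ankrd1. For Actc1 it had 41.3 CPM, against 41.4 CPM in bursa removed tendon 3. With the adult level as a covariate all 9 fitted changes stayed above 0, with Chrna1 at 0.53 ± 0.26, Chrnd at 0.56 ± 0.23, Myog at 0.52 ± 0.30 and Ankrd1 at 0.64 ± 0.28. Without both day 3 tendons numbered 1, Chrna1 was at 0.51 ± 0.29, Chrnd at 0.79 ± 0.29 and Myog at 0.75 ± 0.36. With each library left out in turn, the lowest fitted change of a member ran from 0.10 for Myh3 to 0.99 for Actc1.

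**Figure D3:**
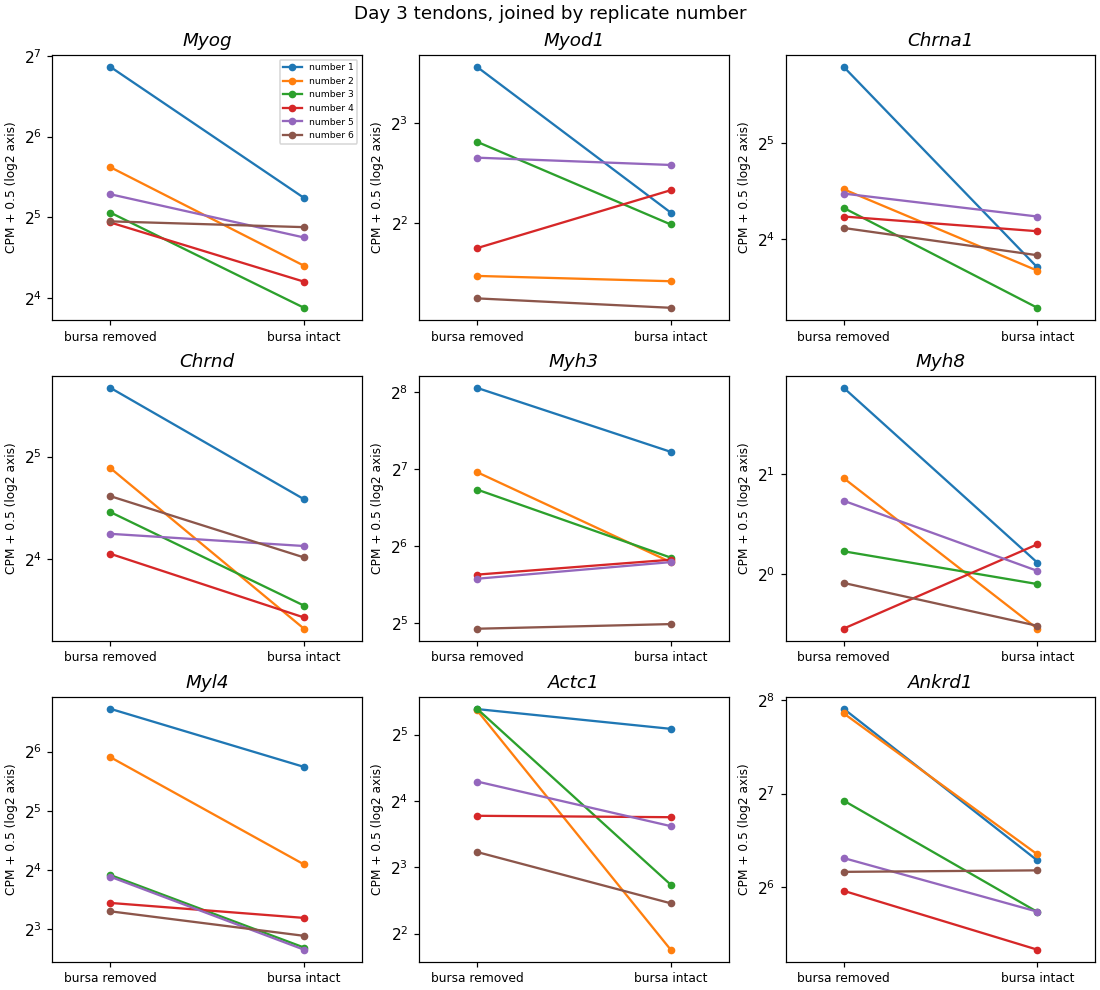
Level of the 9 genes in day 3 tendons, as CPM + 0.5 on a log2 axis, with the bursa removed tendon left of the bursa intact tendon and a line joining libraries of the same replicate number. Every line for Myog, Chrna1, Chrnd, Myl4 and Actc1 is higher at the bursa removed end, and there number 1 is highest for every gene but Actc1.

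On day 14, 8 of the 9 genes again had a higher fitted level with the bursa removed. The median fitted change of the 9 was 0.63, against 1.04 on day 3. Ankrd1 differed by 0.81 ± 0.34 and was higher in 6 of 6 numbers, Myh3 by 0.78 ± 0.44 in 5 of 6, and Chrna1 by -0.28 ± 0.37 with 2 of 6 higher. edgeR called 0 of the 9 genes, against 0% of all features, and at an unadjusted p under 0.05 had 1, against 1.22%. With the replicate number as a block, which pairs the day 14 tendons by the rule used here, edgeR again called 0. The authors' deposited table called 0 members, against 0.0108% of its genes called higher with the bursa removed. The difference between the bursa removed and the bursa intact tendons in their change from day 3 to day 14 was tested as an interaction. edgeR called 0 members and 0% of all features, and at an unadjusted p under 0.05 had 1 member, Chrna1 at -1.19 ± 0.48, against 1.52% of all features.

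The members followed adult muscle RNA to differing degrees. Within groups, that is, over deviations from the group means of the 29 tendon libraries, which share library and depth, Pearson's r with the adult muscle level was 0.77 for Myod1, 0.71 for Myh3, 0.67 for Chrnd, 0.65 for Myog and Ankrd1, 0.63 for Myh8, 0.53 for Chrna1, 0.46 for Actc1 and 0.31 for Myl4. Among members it was 0.84 between Myog and Chrnd, 0.79 between Myog and Chrna1 and 0.59 between Chrna1 and Chrnd. For the sarcomere genes it was 0.80 between Actc1 and Myh3, 0.77 between Myh3 and Myh8 and 0.76 between Actc1 and Myh8. Averaged over the 9 genes, the member level minus the adult muscle level on the log2(CPM + 0.5) scale was -7.49 ± 0.31 in control tendons (SD, n = 5). On day 3 it was -3.72 ± 0.46 with the bursa removed and -3.99 ± 0.29 with it intact, and on day 14 it was -5.21 ± 0.61 and -5.31 ± 0.71 (SD, n = 6 each). This measure is used only between libraries, and every operated tendon lay above every control tendon on it. The adult list itself averaged 11.01 on this scale in control tendons and 7.62 to 8.52 in the operated tendon groups. A fall of the adult genes alone raises the measure, so this separation does not show that the members rose.

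Relative to adult muscle, Chrna1 went to -3.56 on day 3 with the bursa removed and -3.82 with it intact, against -9.04 in control tendons. Myod1 was at -5.89 and -5.69 in those groups, against -6.67 in control tendons. With the adult muscle level as a covariate, the day 3 change of Chrna1 over control was 4.02 ± 0.42 with the bursa removed and 3.48 ± 0.50 with it intact, and that of Myod1 was 0.21 ± 0.52 and 0.19 ± 0.57. Control tendons all had more adult muscle RNA than any operated tendon, so injury and muscle content cannot be told apart in these fits.

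**Figure D4:**
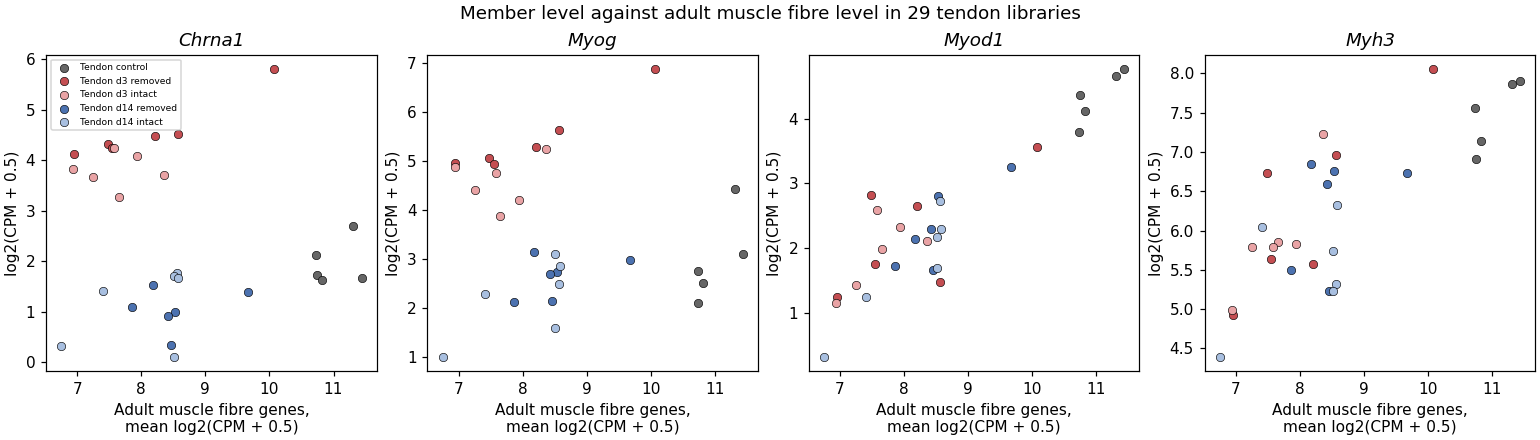
Level of Chrna1, Myog, Myod1 and Myh3 against the mean level of the 18 adult muscle fibre genes in the 29 tendon libraries, both as log2(CPM + 0.5), with 1 point per library coloured by group. For Chrna1 the day 3 tendons stand above both the control and the day 14 tendons, for Myog they do so apart from control tendon 1, and Myod1 runs along the adult muscle level in all groups.

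Genes that act beside the members were taken from fixed lists. Of the 11 traced genes for muscle differentiation and fusion, 3 rose and 7 fell in day 3 bursa removed tendons, and 2 rose and 7 fell in day 3 bursa intact tendons. The median changes were -0.62 and -0.85, against -0.02 and -0.01 over all features. Of all features, 30.7% and 32.5% were called higher and 32.1% and 32.9% lower in these comparisons. Those that rose in both were the fusion genes Mymx (myomixer), by 4.20 ± 0.73 (adjusted p by edgeR's quasi-likelihood test with Benjamini-Hochberg adjustment 1.6e-05) and 3.05 ± 0.72, and Mymk (myomaker), by 2.65 ± 0.83 and 1.96 ± 0.83. Mymx averaged 3.07 ± 1.06 CPM with the bursa removed and 1.39 ± 0.85 CPM with it intact (SD, n = 6 each), against 0.158 ± 0.0963 CPM in control tendons (SD, n = 5). The third, with the bursa removed, was the cell cycle inhibitor Cdkn1a, by 0.82 ± 0.20. From day 3 to day 14 Mymx changed by -4.35 ± 0.66 with the bursa removed and -4.11 ± 0.71 with it intact. Between these days 0 of the 11 rose and 4 fell with the bursa removed, and 1 rose and 2 fell with it intact. The shares of all features were 22.4% and 21.3% higher and 22.6% and 21.7% lower. On day 14 no gene of this list was above control, and 8 of 11 were below it in each tendon group. Over all features 33.2% and 33.9% were called higher and 32.0% and 32.4% lower then, with the bursa removed and intact.

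Of the 5 satellite cell genes, 0 rose and 2 fell in day 3 bursa removed tendons, and 0 rose and 4 fell in bursa intact tendons. In the latter Pax7, the marker of quiescent satellite cells, changed by -2.14 ± 0.62 (0.56 with the adult muscle level as a covariate). Pax7 was low throughout, with deposited means of 2.75 to 10.9 normalized counts. On day 14, 4 and 5 of the 5 genes were below control with the bursa removed and intact. From day 3 to day 14, 1 of the 5 rose and 3 fell with the bursa removed, and 1 rose and 2 fell with it intact. Between these days 22.4% and 21.3% of all features were called higher and 22.6% and 21.7% lower, with the bursa removed and intact. Among those that fell was Myf5, another early factor, by -2.56 ± 0.39 with the bursa removed and -2.02 ± 0.39 with it intact. In the immature and repairing sarcomere list 0 of 10 rose in day 3 tendons, while 7 and 9 fell with the bursa removed and intact. Over all features 30.7% and 32.5% were called higher and 32.1% and 32.9% lower on day 3, with the bursa removed and intact. On day 14, 32.0% and 32.4% were called lower.

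Of 14 traced genes of the neuromuscular junction and of denervation, 4 rose and 5 fell in day 3 bursa removed tendons and 2 rose and 6 fell in bursa intact tendons. Over all features 30.7% were called higher and 32.1% lower with the bursa removed, and 32.5% and 32.9% with it intact, so the list's shares were near the background. Runx1, a factor induced in denervated muscle and also made by many other cells, rose by 2.16 ± 0.18 and 2.36 ± 0.18 with the bursa removed and intact, and the stress gene Gadd45a rose by 1.97 ± 0.27 and 1.43 ± 0.27. Musk, the receptor kinase of the synapse, rose by 0.83 ± 0.30 with the bursa removed, and Hdac4 by 0.35 ± 0.11. Other parts of the same receptor complex were lower than control, although Chrnb1, Rapsn and Chrne turned positive once the adult muscle level was a covariate. Chrnb1, the beta subunit, changed by -0.83 ± 0.31 and -1.46 ± 0.32 with the bursa removed and intact. Rapsn, the receptor-clustering protein, changed by -1.03 ± 0.37 and -1.62 ± 0.38, and Dok7, the activator of MuSK, by -2.93 ± 0.43 and -3.42 ± 0.44. Chrne, the epsilon subunit of the adult receptor, had changes of -0.87 ± 0.44 and -0.46 ± 0.43 that did not pass. With the covariate the changes were 0.81 and 0.68 for Chrnb1, 0.89 and 0.84 for Rapsn and 0.57 and 1.14 for Chrne, with the bursa removed and intact.

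On day 14, 5 genes of this list were above control and 7 below it in both tendon groups, where 33.2% and 33.9% of all features were higher and 32.0% and 32.4% lower, with the bursa removed and intact. Trim63 and Fbxo32, the ubiquitin ligases of muscle atrophy, changed by -2.50 ± 0.39 and -1.82 ± 0.26 with the bursa removed and by -2.82 ± 0.40 and -1.80 ± 0.26 with it intact. Hdac4, a denervation-responsive repressor, rose by 0.99 ± 0.11 and 1.06 ± 0.11. None of the genes of these lists was called by edgeR between bursa removed and bursa intact tendons on day 3 or day 14. Tnnt2 and Ncam1, marks of immature or denervated fibres, could not be traced to transcripts. The authors' deposited tables give Tnnt2 at 2.86 ± 0.39 and 2.18 ± 0.40 and Ncam1 at 2.62 ± 0.37 and 2.07 ± 0.28 over control on day 3, with the bursa removed and intact.

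**Figure D5:**
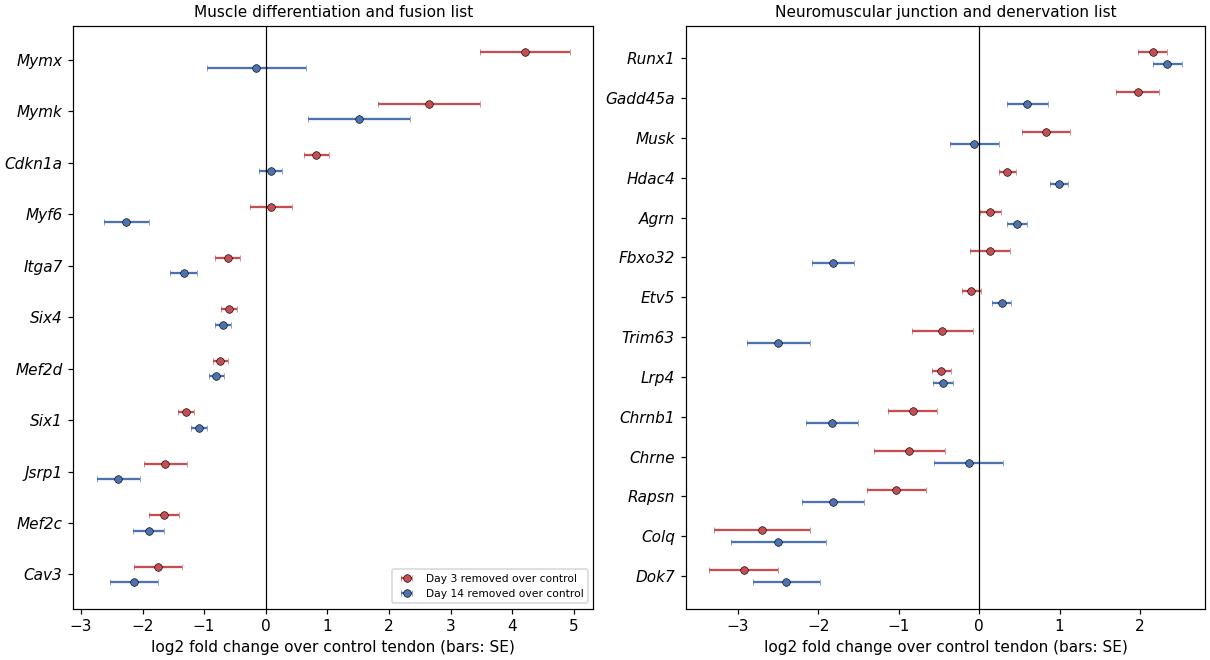
Log2 fold change over control tendon in bursa removed tendons on day 3 and day 14 for 11 genes of muscle differentiation and fusion (left) and 14 of the neuromuscular junction and denervation (right), with bars of 1 SE. Mymx and Mymk stand apart from the rest of their list on day 3, and Chrnb1, Rapsn and Dok7 lie below 0 at both times.

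By the likeness rule, the 10 genes that are not members with the highest Pearson correlation to the members' mean standardised level over the 29 tendon libraries were drawn from 11984 genes. They were Pkig (r = 0.84), Fgfr4 (0.78), Dysf (0.76), Megf10, Myl12a, Fam13a and Pus10 (0.75 each), Coasy and Mustn1 (0.73 each) and Ciao2b (0.72). All points share their libraries, groups and depth, so these values are a description.

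In the bursa, levels differed most between libraries on day 3. Actc1 had 531, 0.539, 1.07, 12.1, 186 and 0.506 CPM in day 3 bursae 1 to 6, against 0.343, 0.0945, 0.199, 0 and 0.126 CPM in control bursae, which is 0 to 4 estimated counts each. Bursae 1 and 5 stood far above the rest, and bursa 4 was next. Myog had 93.5 and 50.9 CPM in bursae 1 and 5 and 0 to 2.75 CPM in the other 4, against 0 to 4.38 CPM in control bursae. Chrna1 had 41.8 and 19.6 CPM in bursae 1 and 5 and 2.55 to 3.42 CPM in the other 4, against 0.85 to 3.15 CPM in control bursae. Chrnd had 38.3 and 16.2 CPM in those 2 bursae and 0.0633 to 1.85 CPM in the others, against 0.0841 to 0.944 CPM in control bursae.

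The sarcomere genes followed the same libraries. Myh3 had 455 and 151 CPM in day 3 bursae 1 and 5 and 0 to 11.3 CPM in the other 4, against 0.283 to 2.83 CPM in control bursae. Myl4 had 213 and 62.4 CPM in them, and Ankrd1 had 243 and 76.6 CPM. Myod1 was an exception in size, with 8.97 and 10.9 CPM in bursae 1 and 5, against 9.95 CPM in control bursa 1 and 0.376 to 1.42 CPM in the other control bursae.

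Of the 9 genes, 6 were called higher in day 3 bursae than in control bursae and 0 lower, against 22.1% and 24.2% of all features. Without day 3 bursae 1 and 5, a choice made after seeing the values, 1 was called, Actc1 at 4.59 ± 1.15, and Myog was at -0.25 ± 1.17. The adult muscle list summed to 5390 and 11400 CPM in bursae 1 and 5 and to 18.2 to 3300 CPM in the other 4. Control bursa 1 had a higher adult sum, 26600 CPM, with Actc1 at 0.343 CPM and Chrnd at 0.944 CPM. Both were the highest of the control bursae, as were its Ankrd1 (19.8 CPM), Myod1 (9.95 CPM), Myog (4.38 CPM), Myh3 (2.83 CPM) and Myh8 (1.12 CPM). Its Chrna1 and Myl4 were not. With the adult level as a covariate 8 of the 9 were called higher.

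On day 14 no bursa reached the levels of day 3 bursae 1 and 5 for Actc1, Myog, Chrna1, Chrnd or Myh3, while the median was higher than on day 3 for 6 of the 9 genes. Actc1 ranged from 1.23 to 11.5 CPM and Myh3 from 6.88 to 42 CPM, both above every control bursa, and Myh8 had a median of 5.18 CPM, against 0.378 CPM in control bursae. Chrna1, at 0.48 to 2.31 CPM, overlapped control bursae. edgeR called 0 of the 9 genes between day 14 and control bursae, against 9.30% of features higher and 7.13% lower. At an unadjusted p under 0.05 it had 3 of the 9, against 5409 of all 16336 features. The members' share was thus near that of all features. DESeq2 called 2. The authors' deposited table called 4, all higher on day 14, against 1603 of its 15814 genes called in that direction. Between day 14 and day 3 bursae, 0 were called higher and 3 lower, Actc1, Chrna1 and Chrnd, against 9.57% and 12.3%. Without day 3 bursae 1 and 5 the only call was Myh8, higher on day 14 by 4.58 ± 1.05.

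Of 14 neuromuscular junction genes, 5 rose and 0 fell in day 3 bursae: Runx1 by 3.05 ± 0.32, Musk by 2.82 ± 0.77, Lrp4 by 1.39 ± 0.23, Etv5 by 0.88 ± 0.30 and Gadd45a by 0.63 ± 0.17. Of 10 differentiation and fusion genes, 1 rose, Mymk, and 3 fell. Over all features 22.1% were called higher and 24.2% lower in this comparison. Mymk was at 0 in all 5 control bursae and at 0 to 49.4 CPM in day 3 bursae. Of the 18 adult muscle genes, 0 rose and 2 fell, the slow light chains Myl2 at -3.15 ± 1.14 and Myl3 at -3.08 ± 1.05. Without control bursa 1, which has the highest adult muscle sum, Myl2 was at -1.17 and Myl3 at -1.34, neither called.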

How the data were processed

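Poly-A RNA was sequenced from 46 libraries in 8 groups, read from the labels. The authors deposited estimated counts per transcript, made with kallisto 0.44.0 after bcl2fastq 2.19 per the submitters' processing notes, and 11 DESeq2 tables with, per the file headers, a mean normalized count (a signal averaged over both groups), a log2 fold change with its SE, a Wald score, and p-values. Genome build: not given in the sources used here.

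Deposited transcripts carry no gene names, so each symbol was traced by finding the transcript whose size-factor-scaled means equal its deposited values over the tables. Of 23747 symbols 13923 were traced (90.5% of all counts), with 38 matches among decoys. The 9 members each matched 1 transcript, Myl4 within 1% and the others within 0.1%. The sign of the deposited fold changes was read from the counts and turned to operated over control, removed over intact, or later over earlier.

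Estimated counts were summed per symbol and rounded. edgeR 4.0.16 (R 4.3.3; filterByExpr, TMM, robust quasi-likelihood fit) was run once per tissue, with Benjamini-Hochberg adjustment over all features and a threshold of 0.05. SE is the fold change divided by the root of F. DESeq2 1.42.0 was an alternative. The fit was tested on simulated data. No 2 libraries of a group agreed within sampling noise. The control bursae were divided. By chi-square per feature, bursae 1 and 2 differed by 65.3 and bursae 3 to 5 by 32.4 to 49.3. Between bursae 1 or 2 and bursae 3 to 5 the values were 540 to 643, above those within any other group. Every bursa fold change over control rests on these 5 libraries.

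Same-numbered bursa removed and bursa intact tendons deviated together at r = 0.268 to 0.56 on day 14, over 0.1 in every pair, and at r = 0.0638 to 0.538 on day 3, under 0.1 for number 3. The series text speaks of a within-rat control, and the deposited fold changes lay closer to DESeq2 with the number as a block (median difference 0.0011 on day 3) than without (0.0074).

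Members and lists were chosen with earlier results of these data known. All 10 members are named whatever their values, list genes beside their list's count, and the 10 genes most correlated with the members' mean. Alternatives were other size factors, no filter, the replicate block, an adult muscle covariate, DESeq2, only the 2 groups compared, other pseudocounts, each library left out and, chosen after seeing the data, libraries numbered 1 or bursae 1 and 5 left out. Promoter sequences are from RefSeq, GRCr8.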

Additional observations from a re-analysis of the deposited data

Results flagged for a closer look

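Of 72 groups of library levels, 5 held a library far from the others of its group by Dixon's criterion, and chance alone gives such a gap in about 1 group in 20. Bursa removed tendon 1 of day 3 stood above the other 5 of its group for Myog, at 116 CPM, and for Chrna1, at 55.1 CPM. Control bursa 1 stood above the other control bursae for Ankrd1, at 19.8 CPM, and for Chrnd, at 0.944 CPM. Control tendon 4 stood above the other control tendons for Myh8, at 1.81 CPM. Both bursa removed tendon 1 and control bursa 1 had the highest adult muscle sum of their groups, 33700 and 26600 CPM; its part in these values was not tested.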

How the results depend on the processing

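Counts of members called, in either direction, stayed within 1.5 times the reported count under the other alternatives run, apart from single libraries left out, and moved in the following, where the cause was not tested. In day 14 bursa intact tendons over control the count was 3 with no filter and 2 with the adult muscle covariate, and in day 14 bursa removed tendons 3 with the covariate. For bursa removed over intact on day 3 it was 4 by DESeq2 with the replicate block and 5 in the authors' deposited table. For day 3 bursae over control it was 1 without bursae 1 and 5. For day 14 bursae over control it was 2 by DESeq2, 3 with only the 2 groups and 4 in the authors' deposited table. For day 14 over day 3 bursae it was 1 with the replicate block, 7 with the covariate, 1 without day 3 bursae 1 and 5 and 5 in the authors' deposited table.

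The replicate block over a whole tissue gave 6 members in each day 3 tendon group over control, 4 and 6 on day 14 with the bursa intact and removed, 0 for removed over intact on both days, and 4 in day 3 bursae. It changed no other member count by over 1.5 times.

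The 5 muscle lists together had 46 and 48 genes called on day 3 and 51 and 53 on day 14 over control, with the bursa removed and intact. With the covariate these were 19 and 12 on day 3 and 13 and 11 on day 14, 29 for day 14 over day 3 with the bursa intact, 24 in day 3 bursae and 21 for day 14 over day 3 bursae. For removed over intact, DESeq2 with the replicate block called 6 on day 3 and 2 on day 14, and the authors' deposited table called 5 and 1. With only the 2 groups the counts were 6 in day 3 bursae, 2 in day 14 bursae and 7 for day 14 over day 3 bursae. That last count was 10 by DESeq2, 9 without day 3 bursae 1 and 5 and 11 in the authors' deposited table.

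Folds that changed sign with the covariate, over control, were Myod1 (0.21 removed and 0.19 intact, day 3), Myh3 (0.98 intact, day 3; 0.74 removed and 0.31 intact, day 14), Chrna1 (0.45 intact, day 14), Chrnd (0.08 removed and 0.21 intact, day 14) and Myl4 (0.51 intact, day 14). On day 3 Chrnb1 went to 0.81 and 0.68, Rapsn to 0.89 and 0.84, Chrne to 0.57 and 1.14, Ckm to 0.11 and 0.35, with the bursa removed and intact, and Pax7 to 0.56 intact. Without bursae 1 and 5, Myog was -0.25 in day 3 bursae over control and Actc1 0.79 for day 14 over day 3. The member minus adult level was -7.14 in control tendons with a pseudocount of 2. Without slow fibre genes it was -8.16 in control tendons, -4.59 and -5.01 on day 3 with the bursa removed and intact, -5.95 on day 14 with it removed and -6.45 in day 14 bursae.

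Leaving out each library in turn gave, for members called, 5 to 6 and 6 to 7 on day 3 and 5 to 6 and 4 to 7 on day 14 over control, with the bursa removed and intact, 0 to 0 for removed over intact and for the interaction, 4 to 4 for day 14 over day 3 in both tendon groups, 5 to 7 in day 3 bursae, 0 to 0 in day 14 bursae and 1 to 4 between the bursa days. For the muscle lists it gave 42 to 48 and 47 to 49 on day 3, 49 to 51 and 49 to 52 on day 14, 0 to 0 for removed over intact and the interaction, 20 to 25 and 13 to 16 for day 14 over day 3, 8 to 13 in day 3 bursae, 3 to 5 in day 14 bursae and 4 to 10 between the bursa days. The count between the bursa days was 1 without day 3 bursa 1 or without any 1 of day 14 bursae 2, 3, 4 and 5, against 3. Control bursae held 0 to 4 estimated counts of Actc1, so counting error is large there.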

Other observations

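The Schwann cell list, glia that sheathe nerve, was lower than control in operated tendons and in day 3 bursae. Of its 6 traced genes, 5 fell in day 3 bursa removed tendons and 6 in day 3 bursa intact tendons, with median changes of -1.27 and -1.46. Over all features 32.1% and 32.9% were called lower there. On day 14, 5 of 6 were below control in each tendon group, with medians of -1.11 and -1.40, against 32.0% and 32.4% of all features called lower. In bursae, 6 of 6 fell on day 3, 1 of 6 was below control on day 14, with a median of -0.18, and 6 of 6 were higher on day 14 than on day 3. Over all features the shares were 24.2% and 7.13% lower than control and 9.57% higher on day 14 than on day 3. The adipocyte list moved alike in bursae, where 5 of its 5 traced genes fell on day 3 and 3 were higher on day 14 than on day 3.

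The tendon cell list summed to 1870 to 2470 CPM in day 3 bursa removed tendons and 1750 to 3700 CPM in day 3 bursa intact tendons, and to 6910 to 7840 CPM and 6590 to 9260 CPM in those groups on day 14, against 3910 to 9300 CPM in control tendons.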
